A study of Mus musculus with 9 samples.

Results

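Interferon-producing killer dendritic cells (IKDC) were compared with natural killer cells (NK) and conventional dendritic cells (CDC). The genes described are those whose level on all 3 IKDC arrays lay outside the range of all 6 other arrays. Of 18193 genes on the array, 178 lay above every NK and CDC array and 232 lay below every one of them, which is 0.978% and 1.28% of the genes. Whether another choice of 3 of the 9 arrays would give as many was not counted, so the counts alone do not show a trait of IKDC. After a shift of the arrays to the same 75th percentile in place of quantile normalization the split was 110 above and 298 below. The 9 arrays hold RNA of cells sorted fresh, without treatment, from naive mice of the BALB/c strain at an age of 6 to 8 weeks, and the sort markers are not given in the sources used here. Each cell type had 2 spleen arrays and 1 lymph node array. The labels name 2 spleen arrays per type by number and do not say whether they came from separate animals, pools or sorts. The sex-linked transcripts Xist and Eif2s3y, given further on, show that spleen arrays 1 and 2 came from mice of different sex. The main limma fit has no term for this difference. Its p-values measure only the spread between these samples, with the difference of sex in it. The values are a description of the arrays that chose the genes. For each gene the gap is the distance between the IKDC array nearest to the others and the other array nearest to IKDC, on the log2 scale.

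CDC take up antigen and present it to T cells on MHC class II. NK are lymphocytes that kill target cells with perforin and granzymes and secrete interferon gamma. IKDC were named for combining killing and interferon production with dendritic cell features such as CD11c and B220, and their place between the NK and dendritic cell lineages has been debated. The comparison asks which transcripts IKDC carry at a level seen in neither of the other types.

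Few genes stood far apart. The gap had a median of 0.12 for the 178 genes above and 0.07 for the 232 below, and exceeded 0.5 for 13 and 3 of them. A level of 5.31, the 40th percentile of the gene means, was the lower limit for testing, and levels under it are near background. Of the genes above, 115 reached that limit, and of the genes below, 111 did, which is 1.05% and 1.02% of the 10916 genes tested. The mean IKDC level was under the limit for 33 of the genes above and for 140 of the genes below. A 2-fold difference of the means from both NK and CDC was reached by 43 genes above, 17 of them tested, and by 9 below, 4 of them tested. The IKDC mean was nearer to NK than to CDC for 135 of the 178 genes and for 151 of the 232. The same share over all genes was not counted. Over all tested genes the IKDC arrays were also nearer to NK, with r of 0.86 to 0.94, than to CDC, with 0.72 to 0.80. The IKDC arrays were no nearer to each other than to NK, with r of 0.87, 0.88 and 0.91. Spleen IKDC array 2 was nearer to every NK array, with r of 0.92 to 0.94, than to either other IKDC array. At the edge of the rule, Xaf1 was just inside, with a gap of 0.0017, and Arf3 missed it by 0.0015.

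Tacc2, which encodes a coiled-coil protein of centrosomes and microtubules, had the largest gap of the genes with a single symbol. With an offset of 1 intensity unit, Bicdl2 and Defa3, both near background, passed it, and so did Adamtsl2, at 1.58 against 1.56. In the order spleen array 1, spleen array 2 and lymph node array, which is kept below, Tacc2 read 7.68, 7.28 and 7.31 in IKDC on the log2 scale. The NK arrays read 5.80, 5.81 and 4.32, and the CDC arrays 3.67, 4.42 and 3.71. All 3 IKDC arrays were close together and at least 1.47 above the highest NK array, while CDC were near background. The mean was 7.42 ± 0.22 (SD, n = 3) in IKDC against 5.31 ± 0.86 in NK and 3.94 ± 0.42 in CDC. The fitted difference from NK was 2.11 ± 0.38 (SE), with a limma adjusted p of 0.573, and that from CDC was 3.48 ± 0.38, with an adjusted p of 0.000303.

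Chl1, a cell adhesion molecule of the L1 family best known from neurons, read 8.75, 7.56 and 8.13 in IKDC. Its NK arrays read 6.71, 4.68 and 5.43 and its CDC arrays 5.43, 4.32 and 3.59. Every IKDC array was at least 0.85 above spleen NK array 1, the highest of the others. A second Chl1 probe set, which the choice of genes did not use, read 6.96, 6.50 and 5.77 in IKDC and at most 5.40 elsewhere, and so did not overlap either. Both of the remaining Chl1 probe sets were near background on all arrays.

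Crtam, a receptor of activated NK and T cells that binds the adhesion molecule Cadm1, was the only gene of the NK receptor list that lay apart. It read 11.31, 10.34 and 10.00 in IKDC, 9.30, 7.43 and 8.67 in NK, and 5.34, 3.18 and 4.53 in CDC. Crtam thus ran in the order IKDC, NK, CDC with no overlap between IKDC and NK, and its lowest IKDC array was 0.70 above spleen NK array 1. The fitted difference from NK was 2.09 ± 0.64 (SE; limma adjusted p = 0.645).

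Other tested genes above all NK and CDC arrays were at moderate level. Rftn1, which encodes the lipid raft protein raftlin, read 9.68, 9.79 and 10.08 in IKDC, 9.19, 8.53 and 8.77 in NK, and 8.20, 8.39 and 8.66 in CDC. The IKDC arrays lay within a narrow band, and spleen NK array 1 came nearest to them. Plpp3, a phosphatase of lipid phosphates at the cell surface, read 7.75, 6.20 and 6.94 in IKDC and between 5.03 and 5.69 on the others. Tex2, a membrane protein linked to lipid transfer, read 8.42, 8.40 and 10.20 in IKDC and between 7.37 and 7.80 on the others. Plpp3 was lowest in spleen IKDC array 2, and Tex2 stood out in lymph node IKDC. Tmem14a, a small mitochondrial membrane protein, read 6.81, 6.93 and 7.06 in IKDC and at most 6.28 elsewhere. With the mean over a gene's probe sets in place of the brightest one, the arrays of Plpp3 and Tex2 overlapped.

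**Figure D1:**
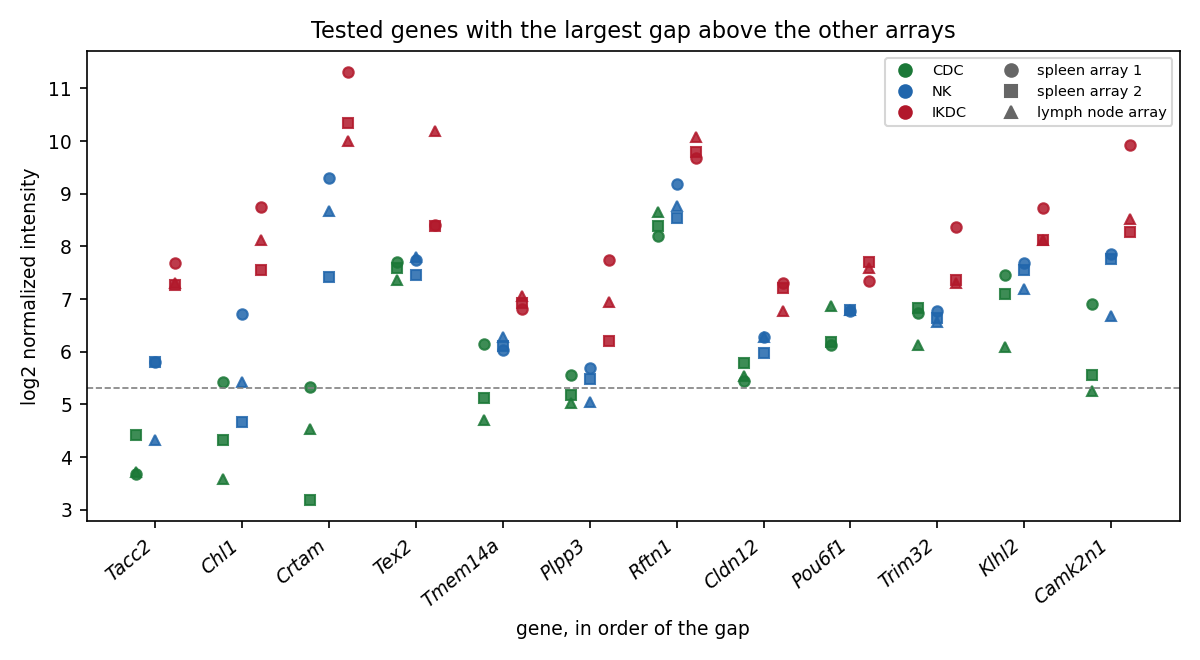
Log2 normalized intensity on each of the 9 arrays for the 12 tested genes with the largest gap above the other arrays. Colours give the cell type, symbols give the array, and the dashed line is the level of 5.31. The 3 IKDC points of Tacc2 lie between 7.28 and 7.68, with every NK point at or under 5.81.

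Several genes above the others were near background outside IKDC and were not tested, and their gaps depended on the offset added before log2. Adamtsl2, which encodes a secreted glycoprotein of the extracellular matrix, read 6.79, 6.42 and 6.76 in IKDC and at most 5.01 on the other arrays, with a gap of 1.40. Pou2af1, the B cell coactivator of octamer-binding factors, read 6.18, 6.23 and 6.61 in IKDC and at most 5.52 elsewhere. Both were thus alike on the 3 IKDC arrays. Sspn, a component of the dystrophin complex of muscle, read 5.23, 5.52 and 5.22 in IKDC and at most 4.48 elsewhere. Defa3, an antimicrobial alpha-defensin, had a gap of 0.87 although no IKDC array exceeded 4.06, and that gap was 1.68 with an offset of 1 intensity unit and 0.28 with 32. Pcolce2, an enhancer of procollagen processing, and Mb21d2 also stayed under 5.31 on every array. Mpped1 and Ngef, a neuronal guanine nucleotide exchange factor, read 5.15 and 4.80 on spleen IKDC array 2, and 7.19 and 6.48 on spleen IKDC array 1.

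Dock5, an exchange factor that activates the GTPase Rac, led the tested genes below all others. It read 8.30, 8.33 and 7.71 in IKDC, 9.16, 9.58 and 8.89 in NK, and 10.52, 9.96 and 9.81 in CDC. The IKDC arrays lay 0.57 under lymph node NK, the nearest of the others, and CDC lay highest. The fitted difference was -1.10 ± 0.22 (SE) from NK, with a limma adjusted p of 0.573, and -1.99 ± 0.22 from CDC, with an adjusted p of 0.000329. A second Dock5 probe set read 7.06, 6.98 and 5.96 in IKDC and at least 7.11 elsewhere, and the remaining one, at lower level, overlapped.

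Fgl2, a fibrinogen-like protein that can be bound to the membrane or secreted, read 8.87, 9.61 and 9.11 in IKDC. The NK arrays read 9.92, 10.63 and 11.27 and the CDC arrays 10.33, 10.40 and 10.83. NK and CDC overlapped each other, and each IKDC array was lower than all of them. The fitted difference was -1.41 ± 0.31 (SE) from NK and -1.32 ± 0.31 from CDC, with limma adjusted p-values of 0.596 and 0.0170. Its other probe set was lower in IKDC on average, by 1.65 against NK in log2 units, and overlapped, so the mean over probe sets overlapped too for Fgl2, as it did for Dock5.

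Among the other leading genes below, Clasrp, an SR-rich protein that binds a splicing kinase, read 7.68, 7.63 and 7.22 in IKDC and at least 8.00 elsewhere. Nhsl2 read 6.94, 6.79 and 6.55 against at least 7.26, and Slx4ip, a partner of a DNA repair nuclease scaffold, read 6.58, 6.65 and 6.52 against at least 6.99. Oprk1, the kappa opioid receptor, read 5.65, 5.19 and 5.79, close to background, against at least 6.16. Lymph node IKDC was the lowest IKDC array for Clasrp, Nhsl2 and Slx4ip. With the mean over probe sets Nhsl2, Slx4ip and Oprk1 overlapped, and Oprk1 did so with the values as deposited too. The remaining 9 of the 15 largest gaps below belonged to genes under 5.31 on every IKDC array. They were Bicdl2, Trim15, 1700074P13Rik, Ssmem1, Hoxd3, Krtap21-1, Hsd17b6, Cxcl15 and Akr1cl. Bicdl2, which had the largest of these gaps, 0.95, read 2.95, 3.18 and 3.17 in IKDC and between 4.14 and 5.08 elsewhere, and its gap was 1.76 with an offset of 1 intensity unit and 0.32 with 32.

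Genes below with a known place in leukocytes, picked after their values were seen, showed smaller gaps. Gna15, a G protein subunit of blood cells, read 5.58, 5.83 and 6.17 in IKDC and at least 6.43 elsewhere. Pram1, an adaptor of myeloid cells, read 4.95, 4.82 and 4.66 in IKDC, 5.20, 5.25 and 5.52 in NK, and 8.89, 8.75 and 6.52 in CDC. Pram1 was thus near background in both IKDC and NK, and its distance was to CDC. Birc3, an inhibitor of apoptosis in the NF-kB pathway, read 9.72, 9.89 and 10.21 in IKDC against at least 10.28 elsewhere. Elmo1, the partner of DOCK proteins, read 8.31, 8.29 and 8.18 against at least 8.54, and Rac1 read 10.90, 10.93 and 10.84 against at least 10.98. No list of DOCK, ELMO or Rac genes was compared, so these do not stand for their families. For Rac1 the fitted difference from NK, -0.16 ± 0.15 (SE), was about as large as its error.

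**Figure D2:**
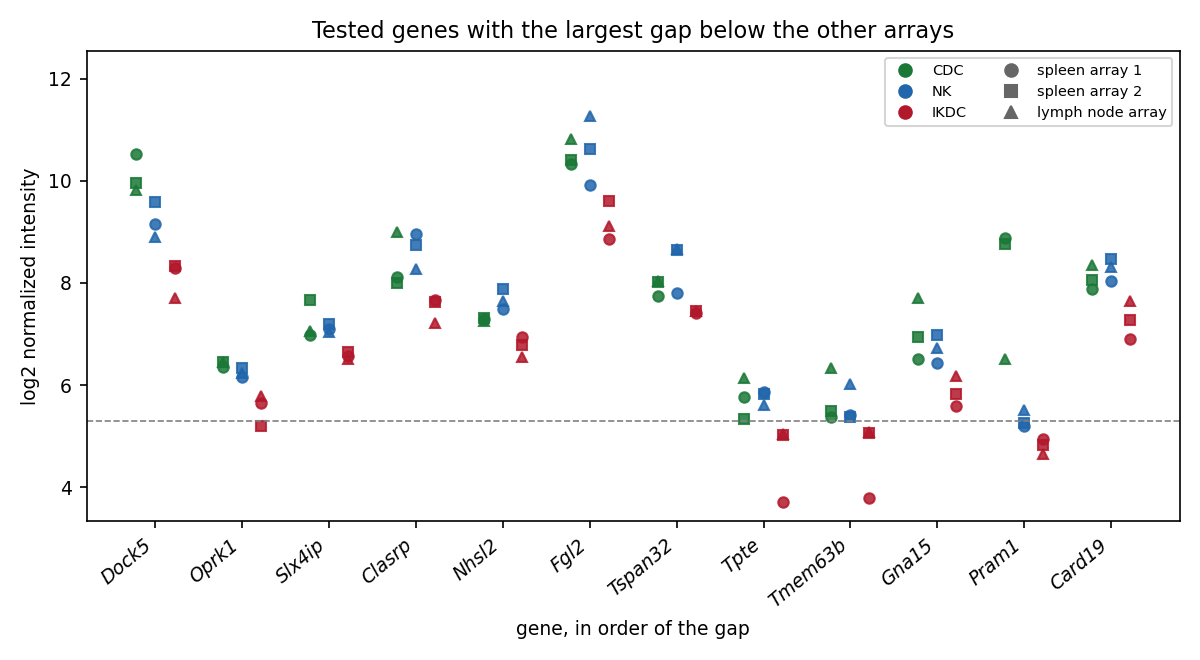
Log2 normalized intensity on each of the 9 arrays for the 12 tested genes with the largest gap below the other arrays, with colours for cell types and symbols for arrays. The dashed line is the level of 5.31, and the 3 IKDC points of Dock5 lie between 7.71 and 8.33 under NK points from 8.89 to 9.58.

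The promoters of Chl1 and Rftn1, from the genes above, and of Fgl2, from those below, are shown to give the sequence next to the start of leading genes with a single promoter entry. Each run is the 250 bases upstream of the RefSeq start in GRCm38.p6, read 5′ to 3′ on the gene's strand. Chl1 lies at chr6:103510626-103510875 on the plus strand, Rftn1 at chr17:50190498-50190747 on the minus strand, and Fgl2 at chr5:21372423-21372672 on the plus strand. Capitals would mark the Runx motif TGTGGT or the T-box motif TCACAC, read on both strands, and none of the 3 windows holds either.
Chl1: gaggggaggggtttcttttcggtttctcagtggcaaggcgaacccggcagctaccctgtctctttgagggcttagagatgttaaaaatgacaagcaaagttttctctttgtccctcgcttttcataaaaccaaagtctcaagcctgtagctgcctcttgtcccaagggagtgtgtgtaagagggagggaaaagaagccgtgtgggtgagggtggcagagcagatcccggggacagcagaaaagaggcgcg
Rftn1: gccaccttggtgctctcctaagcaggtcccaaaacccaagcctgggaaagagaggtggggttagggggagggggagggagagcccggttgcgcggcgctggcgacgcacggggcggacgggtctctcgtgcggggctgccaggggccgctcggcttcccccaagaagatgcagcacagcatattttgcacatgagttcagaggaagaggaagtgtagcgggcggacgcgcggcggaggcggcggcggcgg
Fgl2: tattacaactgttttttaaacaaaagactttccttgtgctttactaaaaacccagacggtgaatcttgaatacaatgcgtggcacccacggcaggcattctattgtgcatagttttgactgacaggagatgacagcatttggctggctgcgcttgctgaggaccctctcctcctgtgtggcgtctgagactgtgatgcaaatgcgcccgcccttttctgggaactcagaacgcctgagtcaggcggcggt
A promoter entry was matched for 142 of the genes above and 183 of those below. The Runx motif was in 14.1% of the promoters above and 12.6% of those below, against 13.2% of those of tested genes and 15.9% of all 27025 in the table. For the T-box motif the shares were 14.1% and 12.6%, against 11.4% and 13.9%. A match is only a run of letters in this window, and says nothing of binding.

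The limma fit across all 10916 tested genes asked which genes differed from NK and also from CDC, with cell type and organ as terms. By the larger of both p-values, 0 genes were called higher in IKDC than in both and 0 lower, a background of 0%, and the smallest adjusted p was 1. At an unadjusted p under 0.05, 94 genes were higher and 52 lower. The count was also 0 in both directions under each alternative run, with smallest adjusted p-values from 0.115, without spleen IKDC array 2, to 1. Of the comparisons behind this test, IKDC against NK gave 0 called genes, with 757 at an unadjusted p under 0.05, and IKDC against CDC gave 1894. Without spleen IKDC array 2, 19 genes were called between IKDC and NK.

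Against the mean of NK and CDC, limma called 220 genes higher and 153 lower, which is 2.02% and 1.4% of those tested. Only 32 and 13 of them lay outside the range of all other arrays. Those above include Tacc2 (adjusted p = 0.00331), Crtam (0.00569), Chl1 (0.0131), Rftn1 (0.0129) and Plpp3 (0.0368), and those below Dock5 (0.00390), Fgl2 (0.0256), Card19 (0.0405) and Birc3 (0.0209). For 105 of the 220 and 74 of the 153 the IKDC mean lay between NK and CDC, so a call against the mean of both is not a call against each. With the replicate number as a block these counts rose to 357 and 241, and without lymph node IKDC they fell to 71 and 48. No gene was called for a different IKDC distance in lymph node and spleen, with 412 at an unadjusted p under 0.05 and a smallest limma adjusted p of 0.221.

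**Figure D3:**
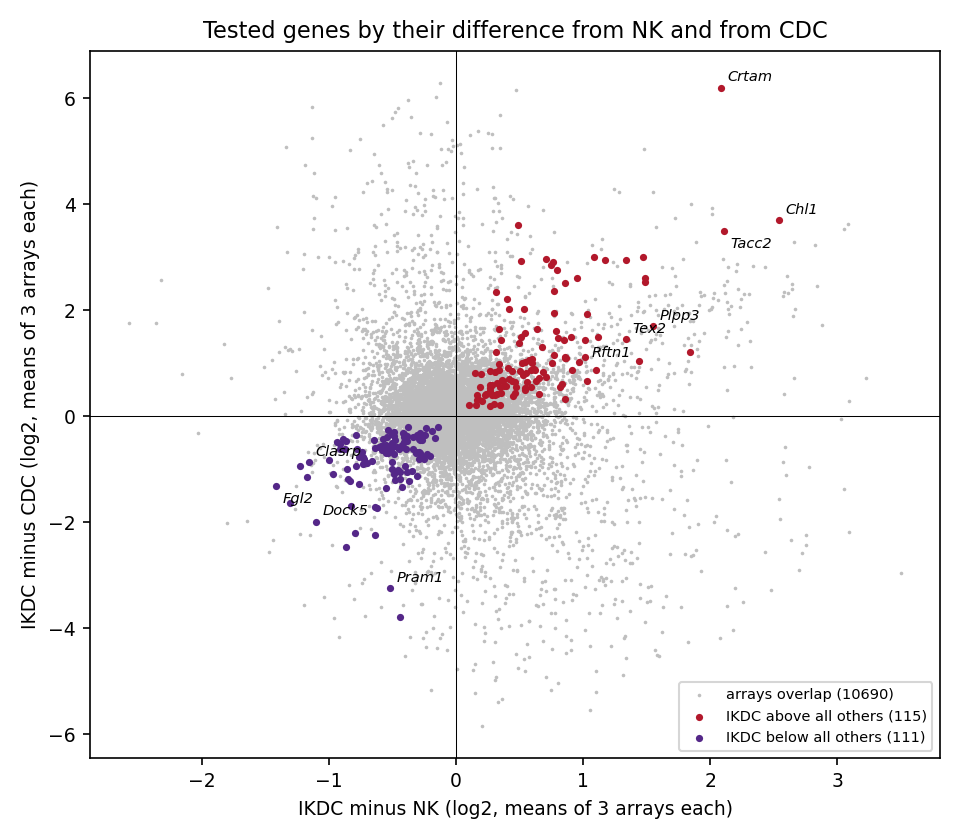
Each point is 1 of the 10916 tested genes, with the IKDC minus NK difference of means on the horizontal axis and the IKDC minus CDC difference on the vertical axis, in log2 units. The 115 genes above all others (red) and the 111 below (purple) lie in the upper right and lower left quadrants. The 10690 other genes (grey, labelled arrays overlap) spread further along the vertical than the horizontal axis. They include genes with every IKDC array between NK and CDC.

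A few more genes above all other arrays were picked after their values were seen. Cldn12, a claudin of cell contacts, read 7.30, 7.20 and 6.77 in IKDC and at most 6.28 elsewhere. Fkbp5, a cochaperone of the glucocorticoid receptor, read 9.29, 9.31 and 9.01 against at most 8.65, and Dll1, a Notch ligand, read 7.78, 7.22 and 8.10 against at most 6.95. Cldn12, Fkbp5 and Dll1 were each higher than the mean of NK and CDC in the limma fit, with adjusted p-values of 0.0218, 0.0237 and 0.0290. These p-values come from the same arrays that chose the genes, and no gene was called against NK. Pebp1, an inhibitor of Raf kinase, was at high level everywhere and read 12.48, 12.68 and 12.09 in IKDC against at most 11.94. Camk2n1, an inhibitor of the kinase CaMKII, read 9.92, 8.28 and 8.52 against at most 7.85, with its highest value on spleen IKDC array 1.

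Genes above the others were about as frequent in lists of lineage and function genes as among all genes. Of the 415 different list genes on the array 5 lay above, or 1.2% against 0.978%, and 1 lay below, or 0.241% against 1.28%. Of 23 lists, 19 had no member outside the range of the other arrays in either direction. Among 24 NK receptor genes on the array, Crtam was the only one above. Among 21 cytotoxic effector genes, Gzmm and Lamp1 lay above, and among 20 B cell genes, Cd72 and Pou2af1 did. Xaf1, a pro-apoptotic interferon-induced protein, was the only one of 22 type I interferon response genes below, with 8.48, 8.09 and 7.75 in IKDC and at least 8.48 elsewhere, a gap of 0.0017, and it overlapped with the values as deposited. The lists of conventional DC (30 genes), class II presentation (18), plasmacytoid DC (25), T cell (17) and proliferation (46) genes held 0 above and 0 below, against 0.978% and 1.28% of all genes. No p-value was computed for a list.

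Gzmm, a granzyme of NK cells and innate-like lymphocytes, read 8.06, 7.93 and 7.89 in IKDC, 7.77, 6.75 and 6.77 in NK, and 5.59, 5.21 and 5.56 in CDC. Its gap of 0.12 to spleen NK array 1 was small, and its distance to the other NK arrays was over 1. Lamp1, a protein of lysosome and granule membranes, read 11.33, 11.86 and 11.36 in IKDC and at most 11.29 elsewhere. Its gap was 0.04, and the arrays of Lamp1 overlapped with the values as deposited and with a shift to the same 75th percentile. Cd72, an inhibitory coreceptor of B cells, read 9.22, 10.03 and 9.60 in IKDC and at most 9.09 elsewhere.

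Over most lists the IKDC median lay between those of NK and CDC. The NK receptor list differed from NK by a median of -0.19 and from CDC by 2.75, over 19 tested genes, and the cytotoxic effector list by -0.32 and 2.99, over 20. Conventional DC genes differed by 0.40 from NK and -2.87 from CDC, over 30, and class II presentation genes by 1.27 and -2.27, over 18. Genes of terminal NK maturation differed by -1.04 from NK and 1.77 from CDC, over 14. The same medians over all tested genes were 0.00 and 0.05. Plasmacytoid DC genes differed from NK by a median of 0.16 in spleen set 1, 0.62 in spleen set 2 and 4.19 in lymph node, so that list rested on lymph node IKDC.

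**Figure D4:**
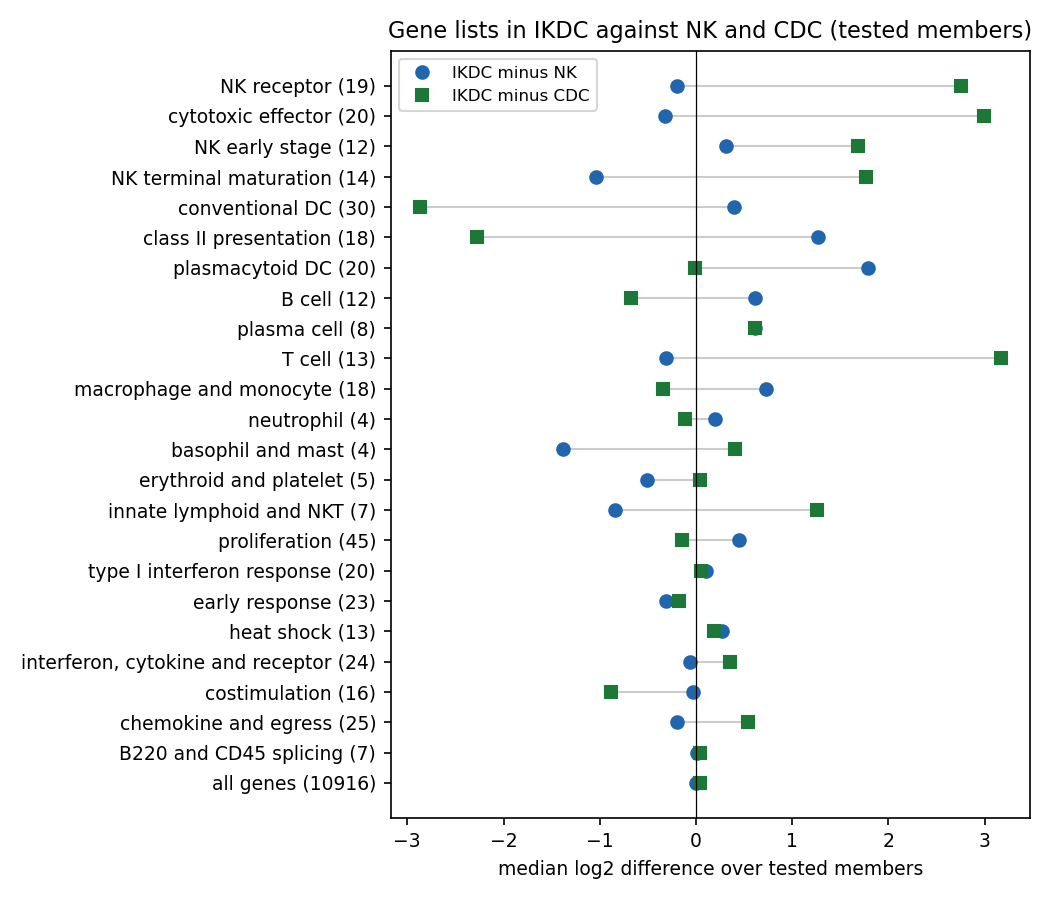
Median log2 difference of IKDC from NK (circles) and from CDC (squares) over the tested members of each list, with their number in parentheses. The NK receptor list lies at -0.19 against NK and 2.75 against CDC, and the conventional DC list at 0.40 and -2.87.

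Genes that define the types in sorting or function did not lie outside the range of the 6 other arrays either, and for some every IKDC array lay between NK and CDC. Itgax, the CD11c chain, read 11.03, 11.24 and 10.88 in IKDC, 11.32, 7.27 and 8.19 in NK, and 11.89, 12.37 and 11.39 in CDC. IKDC were within the range of the others, and spleen NK array 1 was as high as IKDC. H2-Aa, a class II chain, read 12.01, 10.91 and 11.90 in IKDC, 10.89, 6.62 and 9.60 in NK, and 12.57, 12.84 and 11.99 in CDC. Its IKDC minus CDC difference of means was -0.86 here and -2.23, -3.72 and -2.65 on its other probe sets. Ncr1, the NKp46 receptor, read 10.97, 11.55 and 11.55 in IKDC against 11.63, 12.17 and 11.79 in NK. Ncr1 was at 5.06 to 6.22 in CDC. Ifng read 11.18, 11.19 and 9.26 in IKDC, inside or under the NK range of 11.08 to 12.15, and Gzmb read 11.66, 11.22 and 9.91, under the NK range of 11.76 to 12.66 but above CDC. Siglech, a plasmacytoid DC receptor, read 5.45 and 6.51 in spleen IKDC and 10.78 in lymph node IKDC, and Flt3, a DC growth factor receptor, read 6.13, 5.75 and 8.69. In sorted bulk cells, fewer cells of a type and less RNA per cell cannot be told apart.
Of the other genes followed throughout, Ptprc, Itga2, Itgam, Cd27, Prf1, Tnfsf10, Mki67, Cd86, Zbtb46, Il7r and Kit were also not outside that range. Itga2 lay between the types, with 6.35, 6.62 and 6.41 in IKDC, 7.43, 7.18 and 6.95 in NK, and 5.34, 4.71 and 4.87 in CDC. Leaving out 1 array put 4 of the genes followed outside the range of the others. Itgam lay 0.39 and Cd86 0.07 below the others without spleen IKDC array 2. Tnfsf10 lay 0.46 above without lymph node NK, and Siglech 0.08 above without spleen IKDC array 1. Klrb1c was not among the genes with a single-symbol probe set.

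Measures that the choice of genes had not used were the other probe sets of the same genes. At or above the level of 5.31, the genes above had 85 further probe sets, from 55 genes. Of these 4 lay above all other arrays, 4.71%, against 0.538% of all 7800 such probe sets, and 53, or 62.4%, had IKDC means higher than both types, against 23%. The genes below had 55 from 34 genes, of which 5 lay below all others, 9.09% against 1.22%, and 37, or 67.3%, had means lower than both, against 31.6%. None lay outside the range in the opposite direction. These probe sets come from the same arrays and RNA.

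The arrays fell into 3 sets, spleen arrays 1, spleen arrays 2 and lymph node, each with 1 array per type. The female transcript Xist read 6.02 to 6.36 on spleen arrays 1 and at least 11.43 on the others, and the Y-linked Eif2s3y read at least 8.84 on spleen arrays 1 and at most 4.28 on the others, so these sets differ in the sex of the mice, each with all cell types. Comparing only within sets, 839 genes (4.61%) were above both other types in all 3 sets and 896 (4.92%) were below. Prss2, a trypsinogen, is one of those above, with 9.72, 7.67 and 9.23 in IKDC against 7.82, 5.65 and 7.60 in NK. Pacsin1, a regulator of synaptic vesicle recycling that is also on the plasmacytoid DC list, read 8.47, 6.26 and 9.32 in IKDC. Others with large distances in each set are known from neurons, such as Gria1, a glutamate receptor subunit, with 8.72, 4.14 and 7.36 in IKDC. The levels of neuron genes on each array are given further on, and their part in the 839 was not tested. Ccrl2, an atypical chemoattractant receptor, was lower by 0.77 to 0.82 than the nearer type in each set although its level ran from 6.79 to 9.74 among IKDC arrays. Such genes overlap when all arrays are pooled.

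Spleen IKDC array 2 stood apart from the other IKDC arrays. It had the lowest median intensity, 23.4 against 28.5 to 41.3 units, and the lowest BioB hybridisation control, 124 against 210 to 505. Without it, 1162 genes lay above all others, of which 176 were among the 178, and 708 lay below, so that the count above rests on this array. The genes gained were led by transcripts of brain. Gpm6a, a neuronal membrane glycoprotein, read 10.82 on spleen IKDC array 1 and 10.35 in lymph node IKDC, but 3.25 on spleen IKDC array 2. Its other high values were 7.78 and 6.94, on spleen NK array 1 and spleen CDC array 1. Rbfox3, a nuclear protein of neurons, read 9.83, 5.25 and 9.55 in IKDC.

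A list of neuron genes, written after this was seen, had 27 of 30 members on the array. Its median level was 8.39 on spleen IKDC array 1, 4.51 on spleen IKDC array 2 and 7.33 in lymph node IKDC. It was 6.18 on spleen NK array 1, 5.77 on spleen CDC array 1 and between 4.25 and 4.58 on the other 4 arrays. The summed intensity was 13959 and 6837 units on both high IKDC arrays and 511 to 2567 on the others, and 25 and 24 of the 27 genes reached 5.31 there, against 4 on spleen IKDC array 2. Astrocyte genes summed to 3079 and 1426 units on those IKDC arrays and 201 to 579 on the others. Oligodendrocyte genes summed to 4849 and 4053 units against 2330 to 4796, but Mbp and Cnp, high on every array, weigh most in this sum. The median level of the 11 oligodendrocyte genes was 6.98 and 6.505 on those IKDC arrays and 4.965 to 5.67 on the others. Of these genes 10 and 8 reached 5.31 there, against 4 to 7 on the others. The actin 3′ to 5′ ratio, a measure of RNA integrity, was 3.23 on spleen IKDC array 1 and 1.11 to 2.35 elsewhere, whereas the Gapdh ratio was 3.67 there and 2.70 to 6.15 elsewhere. With all 9 arrays 0 of the 27 neuron genes lay above all others, against 0.978% of all genes. Within sets, 7 of the 27, or 25.9%, were above both other types in all 3 sets, against 4.61% of all genes, and 0 were below. In the set of spleen arrays 2 the distance of these 7 ran from 0.11, for the synaptic protein gene Snap25, to 1.28, for the synaptotagmin gene Syt4. Of these, Gria1, Scg2, Snhg11 and Syt4 were among the genes with the largest distances above within sets. As the list was written with results of these arrays known, the share of 25.9% is a description and not a test.

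**Figure D5:**
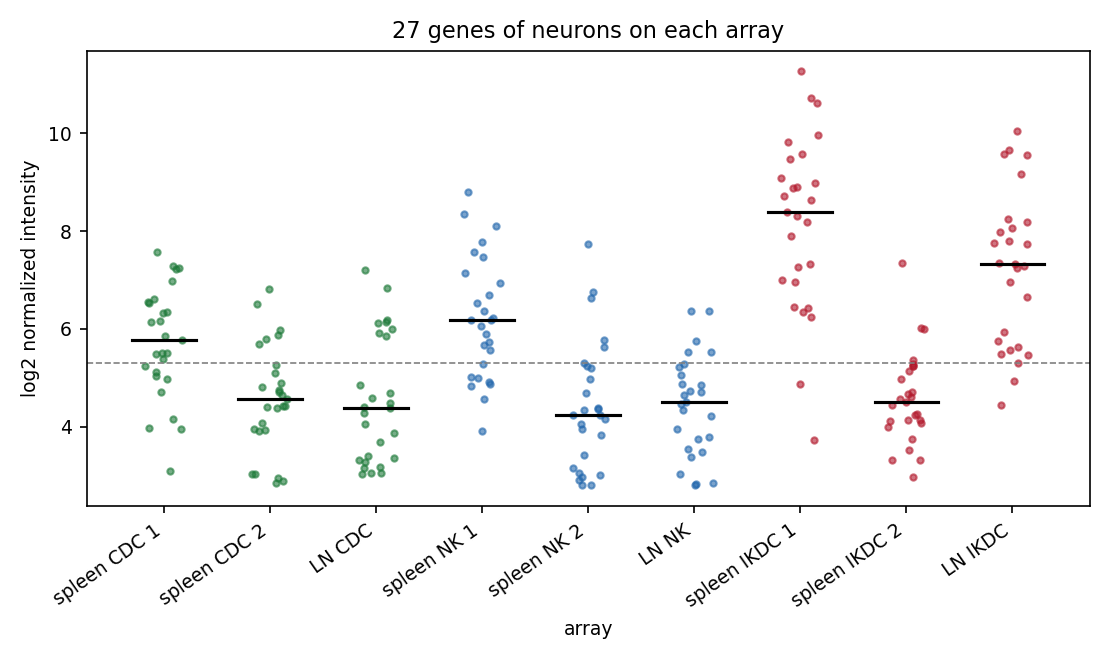
Log2 normalized intensity of 27 neuron genes on each array, with 1 point per gene, a bar at the median and a dashed line at 5.31. The medians of spleen IKDC array 1 and lymph node IKDC, 8.39 and 7.33, lie above those of all other arrays, and that of spleen IKDC array 2 is 4.51.

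Some genes above all others are also known from brain, such as Chl1, Camk2n1, Ngef and Mpped1. Of the 178, 6 were lower on spleen IKDC array 2 than on both other IKDC arrays by over 1: Ahi1, Atp2b2, Gpr176, Mpped1, Scn2a and Wscd1, of which only Ahi1 was tested. Among all 10916 tested genes 551 were lower in this way, against 1 of the 115 tested genes above. The rule limits this count, as spleen IKDC array 2 had to lie above every NK and CDC array. Scn2a, a neuronal sodium channel, read 6.49, 4.32 and 5.53 in IKDC and at most 4.22 elsewhere. The part of brain transcripts in these results was not tested.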

How the data were processed

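Total RNA, 6 µg per array, was extracted with TRIzol and RNeasy and labelled as biotinylated cRNA, per the labels' protocols. The authors' deposited table holds linear signal intensity for 45101 probe sets, already scaled: the mean between the 2nd and 98th percentiles lies at 149.9 to 150.0 units on each array. Which software scaled them was not given in the sources used here, and no detection calls were used. Before log2, 6.49 units (20th percentile over the table) were added to every value, and arrays were then quantile normalized; fold changes of low genes are understated on this scale. Controls (64 probe sets) were dropped. Of the rest, 34945 carried 1 gene symbol in the platform annotation, 932 several and 9160 none, and for each of 18193 genes the brightest probe set on average was kept. Symbols were updated through gene identifiers for 34741 probe sets.

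The 10916 genes whose mean reached the 40th percentile were fitted in limma 3.58.1 (R 4.3.3; lmFit, eBayes with trend) with cell type and organ, on 5 residual and 4.05 prior degrees of freedom. P-values are two-sided, adjusted by Benjamini and Hochberg over all tested genes, with a threshold of 0.05. To be apart from both types, a gene had to pass by the larger of its p-values against NK and CDC. The script was tested on simulated data. Named genes were the 15 with the largest gap in each direction, up to 4 non-overlapping members of each of 23 lists, and fixed genes; 455 of 502 list genes were on the array. Others are said to be chosen after their values were seen. The members and lists were chosen with earlier results of these data known. Alternatives were the normalization, offset, probe set rule, filter, design, spread settings and leaving out each array. Promoters came from RefSeq tables (GRCm38.p6), handled with Python 3.11.15, pandas 2.3.3 and matplotlib 3.10.9. The number of arrays limits the precision.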

Additional observations from a re-analysis of the deposited data

Results flagged for a closer look

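Probe set 1416666_at, which carries no gene in the annotation used, had a larger gap than every named gene. It read 9.01, 8.32 and 7.96 in IKDC, 5.83, 5.76 and 4.88 in NK, and 5.47, 5.11 and 4.46 in CDC, so its gap was 2.127 on the log2 scale. It was flagged because it lies outside the genes compared and stood above every NK and CDC array. Among the 10092 probe sets with no symbol or several, 58 (0.575%) lay above all other arrays and 233 (2.31%) below. The largest gap below was 0.86, for 1431498_at, which read 3.51, 4.05 and 3.86 in IKDC and at least 4.91 elsewhere.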

How the results depend on the processing

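The counts of genes outside the range of the other arrays moved with the scaling. They were 178 above and 232 below with quantile normalization, 156 and 180 as deposited, of which 107 and 92 were shared, and 110 and 298 after a shift to the same 75th percentile, of which 93 and 143 were shared. Among genes at or above the 40th percentile they were 115 and 111, and within sets, an alternative added after the data were seen, 839 and 896. The causes were not tested. Leaving out 1 array, which mostly eases the rule, gave 221 to 1162 above and 315 to 708 below. At least 172 and 230 of them were shared, and the highest counts came without spleen IKDC array 2. They were 541 and 682 without lymph node IKDC, 403 and 538 without spleen IKDC array 1, 331 and 401 without spleen NK array 1, and 321 and 465 without lymph node NK. For genes apart from both types by limma, the count stayed at 0 to 0 in both directions, under every alternative. For genes called against the mean of NK and CDC, the counts were 71 to 411 higher and 48 to 175 lower when 1 array was left out, the lowest without lymph node IKDC, and 29 and 28 with spleen arrays alone, which have fewer samples. They were 116 and 98 without lymph node NK, 135 higher without spleen NK array 2, and 80 and 91 lower without spleen CDC array 1 and array 2. With the replicate block they were 357 and 241, and the block changed no call of genes apart from both (0 and 0) or between organs (0). Same-numbered spleen arrays deviated together, with r of 0.41 between CDC and NK deviations, 0.49 between NK and IKDC and 0.53 between CDC and IKDC over 10916 genes, which are not independent. Xist and Eif2s3y also split the spleen arrays by number. The labels do not say what the number marks, and the main fit has no block. Of 34 named genes, none turned direction in 476 pairs of gene and alternative, and 460 pairs did not overlap. In 306 of these pairs 1 array was left out, which can hardly narrow a gap. That 0 of the 306 overlapped therefore says little. Among the 170 other pairs 16 overlapped, and 21 genes overlapped under no alternative. Many of these pairs could hardly change either. An offset keeps the order of values on each array, and 176 and 177 of the 178 genes above were shared with offsets of 1 and 32, as were all 232 below. The mean over probe sets leaves a gene with 1 probe set as it was. These counts therefore say little of how firm the named genes are. The 16 overlapped as deposited (Akr1cl, Lamp1, Oprk1, Xaf1), after the percentile shift (Lamp1), or with the mean over probe sets (11 genes, among them Dock5, Fgl2, Plpp3 and Tex2). The gap moved by over 1.5 times for 8 of the 34 with an offset of 1 and for 15 with 32, Bicdl2 and Defa3 among them. No detection calls were used, so levels under 5.31 may be background.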
